A study of Homo sapiens with 12 samples.

Results

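The expression of 8 genes around the liver X receptors (LXR) was measured by RNA sequencing in HCT116, an established line of human colorectal cancer cells, out of 25733 genes in the table. The genes were the receptor genes NR1H2 and NR1H3, the LXR target genes ABCA1, ABCG1, MYLIP and LPCAT3, and the adjacent apolipoprotein genes APOE and APOC1. The 8 were chosen from measured values, because APOC1 was higher in cells given NH4Cl, which is taken here as NH4Cl against untreated cells. Values for NH4Cl against untreated cells are therefore given as a description, with no test. All 8 were found by name, and 7 of them had a mean of at least 1 FPKM over the 12 libraries, the minimum for a test. FPKM are reads scaled to the exon length of a gene and to the depth of a library.

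The study asked how ammonia, given as NH4Cl, alters TGF-β signalling in colon cancer cells. Its 12 libraries formed 4 groups of 3, numbered replicate 1 to 3 in each group. The control cells had no treatment. By the methods of the study, the NH4Cl group had 10 mM NH4Cl for 24 h, the TGF-β group had vehicle for 23 h and then 200 pM TGF-β for 1 h, and the group with both agents had NH4Cl for 23 h before TGF-β for 1 h. The labels name the agents without dose or time. All groups were the same cell line, and total RNA was sequenced.

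LXRs are nuclear receptors that bind oxysterols and, paired with a retinoid X receptor, sit on DNA at spaced repeats of a short hexamer. Their targets send cholesterol and phospholipid out of the cell, remodel membrane phospholipid and limit the uptake of low-density lipoprotein. In the intestine they are known for moving cholesterol into high-density lipoprotein, and in macrophages APOE and APOC1 are part of the response.

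Each library held between 14807630 and 18191998 reads on genes, with a median of 15484798. These depths came from the FPKM values, which gave whole reads within 0.1 for 100% of the values with the exon lengths of GENCODE release 29. The replicate 3 libraries stood apart from the rest in all 4 groups. Their share of reads on mitochondrial genes was 4.502% to 5.119%, against 2.464% to 3.182% in replicates 1 and 2, and what part this has in the results was not tested. A model that also takes the replicate number as a block is therefore given beside the model without it. The replicates are not stated to be separate cultures, so the p-values measure the spread between these samples. Because whole cultures were sequenced, fewer cells with a transcript and less of it per cell cannot be told apart.

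The promoters of APOE and APOC1 are shown because these members passed the test of NH4Cl in TGF-β-treated cells, and that of ABCA1 because it is a target gene at the other end of the range of levels. RefSeq promoter windows on GRCh38.p14, 300 bases from 250 before the start site to 50 after it, were matched for 7 of the 8 members. ABCG1 was the other. Where a gene has several start sites, the first entry was used. They lie at chr19:44905546-44905845 on the plus strand for APOE, chr19:44914422-44914721 on the plus strand for APOC1 and chr9:104928106-104928405 on the minus strand for ABCA1. Each reads 5′ to 3′, with matches to the motifs searched in capitals.
APOE: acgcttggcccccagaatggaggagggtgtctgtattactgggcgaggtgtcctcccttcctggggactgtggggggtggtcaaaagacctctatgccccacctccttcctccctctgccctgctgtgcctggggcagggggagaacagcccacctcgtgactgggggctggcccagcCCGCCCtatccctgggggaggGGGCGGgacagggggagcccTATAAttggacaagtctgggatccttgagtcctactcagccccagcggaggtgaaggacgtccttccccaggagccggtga
APOC1: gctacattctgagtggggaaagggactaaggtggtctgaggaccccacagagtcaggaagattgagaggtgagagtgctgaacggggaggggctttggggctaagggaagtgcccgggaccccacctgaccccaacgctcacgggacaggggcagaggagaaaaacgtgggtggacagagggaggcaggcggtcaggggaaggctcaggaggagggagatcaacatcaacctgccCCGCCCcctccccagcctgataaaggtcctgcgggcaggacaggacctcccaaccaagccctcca
ABCA1: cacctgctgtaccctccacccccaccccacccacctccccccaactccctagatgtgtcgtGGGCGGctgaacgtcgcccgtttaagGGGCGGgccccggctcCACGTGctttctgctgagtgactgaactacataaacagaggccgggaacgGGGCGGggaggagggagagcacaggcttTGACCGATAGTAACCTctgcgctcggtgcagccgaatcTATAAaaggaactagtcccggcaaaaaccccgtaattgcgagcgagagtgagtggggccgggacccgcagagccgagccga
The motifs were searched on both strands, also in all 35116 promoter windows of this length. The hexamer AGGTCA was in 13.8% of them, and its repeat with 4 bases between, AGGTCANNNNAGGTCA with at most 2 mismatches over its 12 fixed letters, in 2.34%. CACGTG was in 7.26%, TCACNCCAC in 1.13%, GGGCGG in 45.0% and TATAA in 20.4%. The repeat contains the hexamer, so those 2 motifs can overlap. Positions count from 1 at the left end of the printed window. The ABCA1 window had the spaced repeat at 182 with 2 mismatches on the minus strand, CACGTG at 104, GGGCGG at 62, 88 and 154, and TATAA at 220. The APOE window had GGGCGG at 179 and 200 and TATAA at 220, and the APOC1 window had GGGCGG at 236. Among the first entries of the 7 members, AGGTCA with no mismatch was in the window of NR1H3, at 111. A match is a description of these letters and not a site of binding.

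On the FPKM scale the order of the levels in control cells was NR1H2 (14.0), APOE (8.03), APOC1 (7.85), LPCAT3 (6.23), NR1H3 (3.01), MYLIP (1.79), ABCG1 (0.986) and ABCA1 (0.0387). APOE and APOC1 did not differ beyond their spread there, with an SD of 0.938 and 0.325 (n = 3 each). The TGF-β group had the same order, from NR1H2 at 14.6 down to ABCA1 at 0.043. With NH4Cl, APOC1 and NR1H2 were level at 13.8 FPKM with APOE at 13.1, which is within their SDs of 0.999, 2.42 and 1.05. With both agents APOE led at 15.3, ahead of NR1H2 at 14.1 and APOC1 at 14.0, gaps of about the size of the SD of NR1H2 (1.14) and under that of APOC1 (1.86). The other 5 genes kept 1 order in all 4 groups. Among neighbours in that order, LPCAT3 overlapped with APOC1 with TGF-β, and MYLIP with ABCG1 in both groups with NH4Cl.

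**Figure D1:**
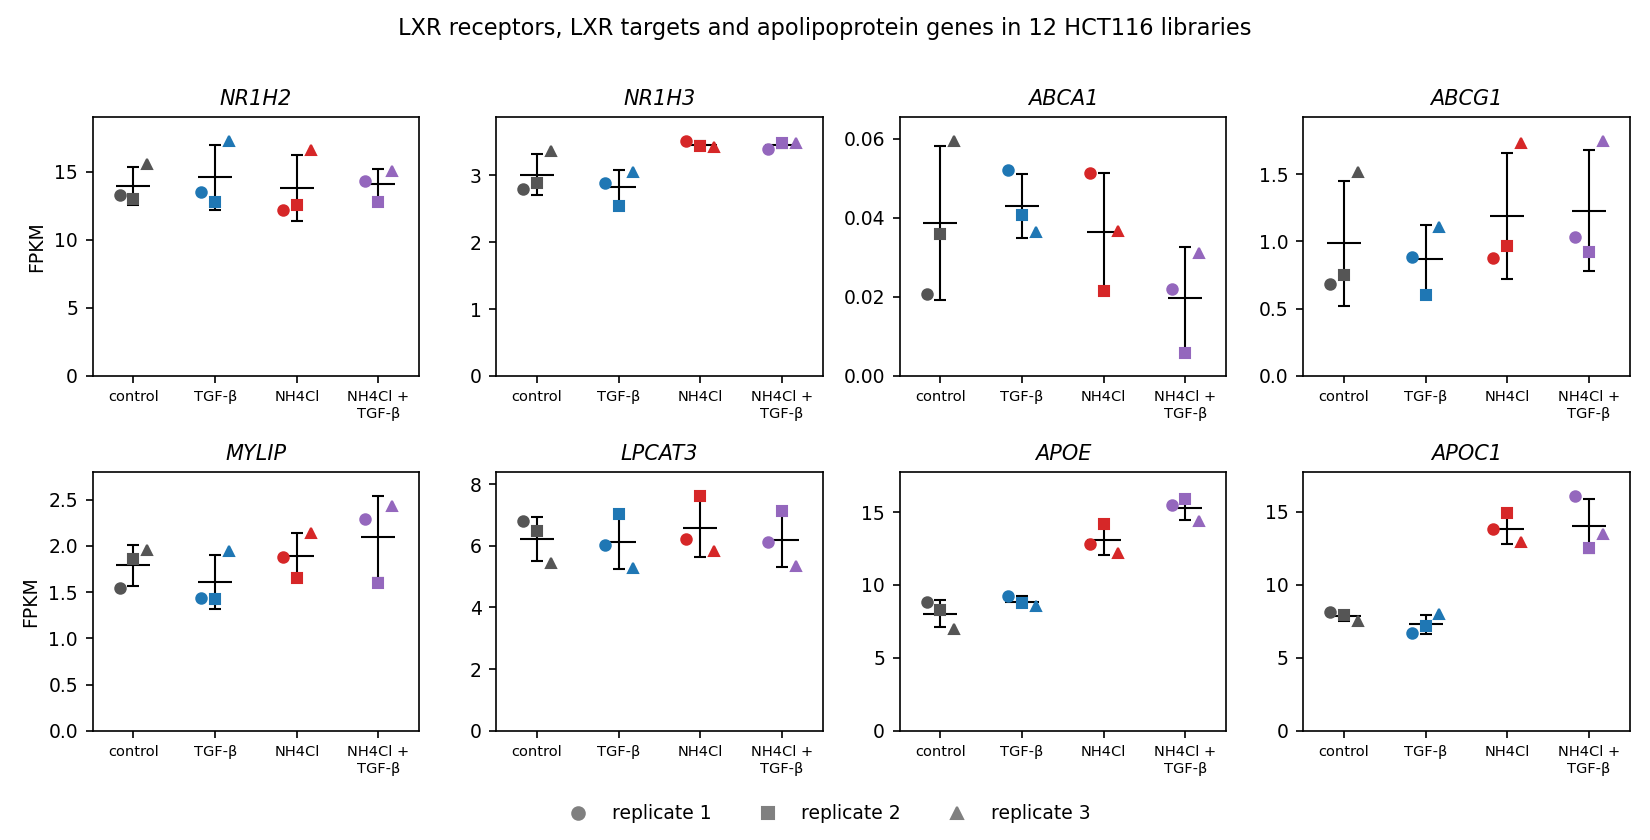
FPKM of the 8 genes in each of the 12 libraries, with 1 point per library shaped by replicate number, and the mean and SD of each group as bars. APOC1 lies between 6.69 and 8.16 FPKM in the 6 libraries without NH4Cl and between 12.5 and 16.1 in the 6 with it. This is a description, since the choice of the genes turned on APOC1 being higher with NH4Cl.

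NR1H2 encodes LXR beta, the receptor found in most tissues (ENSG00000131408, GRCh38, chromosome 19, 50329653 to 50382982, plus strand). Its FPKM were 13.3, 13.0 and 15.6 in control replicates 1 to 3 and 13.5, 12.8 and 17.3 with TGF-β. They were 12.2, 12.6 and 16.6 with NH4Cl and 14.3, 12.8 and 15.1 with both agents. The replicate 3 library was the highest in every group, and all groups overlapped. These values rested on 706 to 961 reads per library, so counting alone gives an error of 3.23% to 3.76%.

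NR1H3 encodes LXR alpha, which is itself an LXR target in some human cells (ENSG00000025434, GRCh38, chromosome 11, 47248300 to 47269032, plus strand). It measured 2.79, 2.88 and 3.36 FPKM in control cells and 2.88, 2.54 and 3.05 with TGF-β. With NH4Cl it measured 3.52, 3.44 and 3.42, and with both agents 3.4, 3.49 and 3.48. The 6 libraries with NH4Cl lay between 3.4 and 3.52 and above all 6 without it, although control replicate 3 came within 0.1 FPKM of them. This is a description, since these sets include the control and NH4Cl libraries, taken here as those that chose the genes. NR1H3 had a mean of 3.19 FPKM over the 12 libraries, against 14.1 for NR1H2.

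ABCA1 encodes the transporter that hands cholesterol and phospholipid to lipid-poor apolipoproteins (ENSG00000165029, GRCh38, chromosome 9, 104781002 to 104928237, minus strand). It was near the limit of detection. Its FPKM were 0.0208, 0.0359 and 0.0595 in control cells, 0.0521, 0.0406 and 0.0364 with TGF-β, 0.0514, 0.0216 and 0.0366 with NH4Cl, and 0.022, 0.00576 and 0.0311 with both agents. These stand for 1 to 11 reads per library and 75 reads in all. The groups overlapped except that the 3 libraries with both agents lay below the 3 with TGF-β. Those groups held 11 and 24 reads, a ratio of 0.458 with a 95% exact binomial interval from 0.203 to 0.972. The ratio was 1.16 (0.617 to 2.18) for TGF-β against control and 0.551 (0.237 to 1.22) for TGF-β in cells given NH4Cl, so of the 3 intervals 2 include 1. Such intervals cover counting error only, not the spread between replicates. ABCA1 was under the FPKM minimum, so it was left out of the test except in the alternative with no filter, where APOC1 and APOE were the members past the threshold.

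ABCG1 encodes the transporter that passes cholesterol on to mature high-density lipoprotein (ENSG00000160179, GRCh38, chromosome 21, 42199689 to 42297244, plus strand). It measured 0.685, 0.751 and 1.52 FPKM in control cells and 0.888, 0.603 and 1.11 with TGF-β. With NH4Cl it measured 0.878, 0.97 and 1.73, and with both agents 1.03, 0.919 and 1.75. The replicate 3 library was the highest of each group, and all groups overlapped. Within each replicate number the library with NH4Cl lay above its counterpart without it, both with and without TGF-β.

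MYLIP encodes the ubiquitin ligase IDOL, which limits the uptake of low-density lipoprotein (ENSG00000007944, GRCh38, chromosome 6, 16129125 to 16148248, plus strand). Its FPKM were 1.54, 1.86 and 1.96 in control cells, 1.44, 1.43 and 1.95 with TGF-β, 1.88, 1.65 and 2.14 with NH4Cl, and 2.29, 1.6 and 2.43 with both agents. All groups overlapped, and counting error was 8.94% to 12.3% per library. LPCAT3 encodes the acyltransferase that puts polyunsaturated chains into membrane phospholipid (ENSG00000111684, GRCh38, chromosome 12, 6976186 to 7018510, minus strand). It measured 5.43 to 6.8 FPKM in control cells, 5.28 to 7.04 with TGF-β, 5.84 to 7.63 with NH4Cl and 5.36 to 7.12 with both agents. Those ranges overlapped throughout, and the replicate 3 library was the lowest of each group.

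APOE encodes apolipoprotein E, a ligand for lipoprotein receptors that also accepts cholesterol from cells (ENSG00000130203, GRCh38, chromosome 19, 44905754 to 44909393, plus strand). It measured 8.81, 8.29 and 6.99 FPKM in control cells and 9.26, 8.75 and 8.57 with TGF-β. With NH4Cl it measured 12.8, 14.2 and 12.2, and with both agents 15.5, 15.9 and 14.4. The 6 libraries with NH4Cl were all above the 6 without it, and the 3 with both agents were above the 3 with NH4Cl alone. Both are a description, since the control and NH4Cl libraries are taken here as those that chose the genes. Counting error was 4.28% to 6.64% per library, from 227 to 545 reads.

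APOC1 encodes apolipoprotein C1, a small protein of lipoprotein particles that lowers their uptake and clearance (ENSG00000130208, GRCh38, chromosome 19, 44914247 to 44919349, plus strand). It measured 8.16, 7.9 and 7.51 FPKM in control cells and 6.69, 7.17 and 7.99 with TGF-β. With NH4Cl it measured 13.8, 14.9 and 12.9, and with both agents 16.1, 12.5 and 13.5. The highest library without NH4Cl was control replicate 1 and the lowest with NH4Cl was replicate 2 with both agents, so these sets did not overlap. That is a description, since the sets include the control and NH4Cl libraries, taken here as those that chose the genes. The 134 to 317 reads of APOC1 per library give a counting error of 5.62% to 8.64%.

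APOC1 and APOE had nearly equal FPKM. The ratio of APOE to APOC1 was 1.08, 1.05 and 0.931 in control cells, 0.931, 0.958 and 0.947 with NH4Cl, 1.38, 1.22 and 1.07 with TGF-β, and 0.966, 1.28 and 1.06 with both agents. The ratio was between 0.931 and 1.38 in all 12 libraries, and it was above 1 in 5 of the 6 libraries with TGF-β. The 6 libraries without TGF-β had it above 1 in control replicates 1 and 2 and below 1 in the rest. APOC1 shares 43.2% of its exon bases with a transcript on the same strand, so its level and this ratio are uncertain.

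Differences between groups are given on log2(FPKM + 1), where a difference of 1 is a doubling for well expressed genes and understates the change of genes with low FPKM. NH4Cl against control is taken as the comparison that chose the genes. In it the log2 difference was 0.744 for APOC1 (13.8 against 7.85 FPKM, a ratio of 1.76) and 0.644 for APOE (13.1 against 8.03, a ratio of 1.63). Both were higher in 3 of 3 replicate numbers. NR1H3 differed by 0.156, ABCG1 by 0.147, LPCAT3 by 0.063, MYLIP by 0.054, NR1H2 by -0.025 and ABCA1 by -0.003. Of these 6, NR1H3 had groups that did not overlap, and NR1H3 and ABCG1 were higher in 3 of 3 replicate numbers. No share over all genes stands beside these counts. The median over the 12341 genes tested elsewhere was 0.0001. Nothing is read from these values, since they picked the members.

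**Figure D2:**
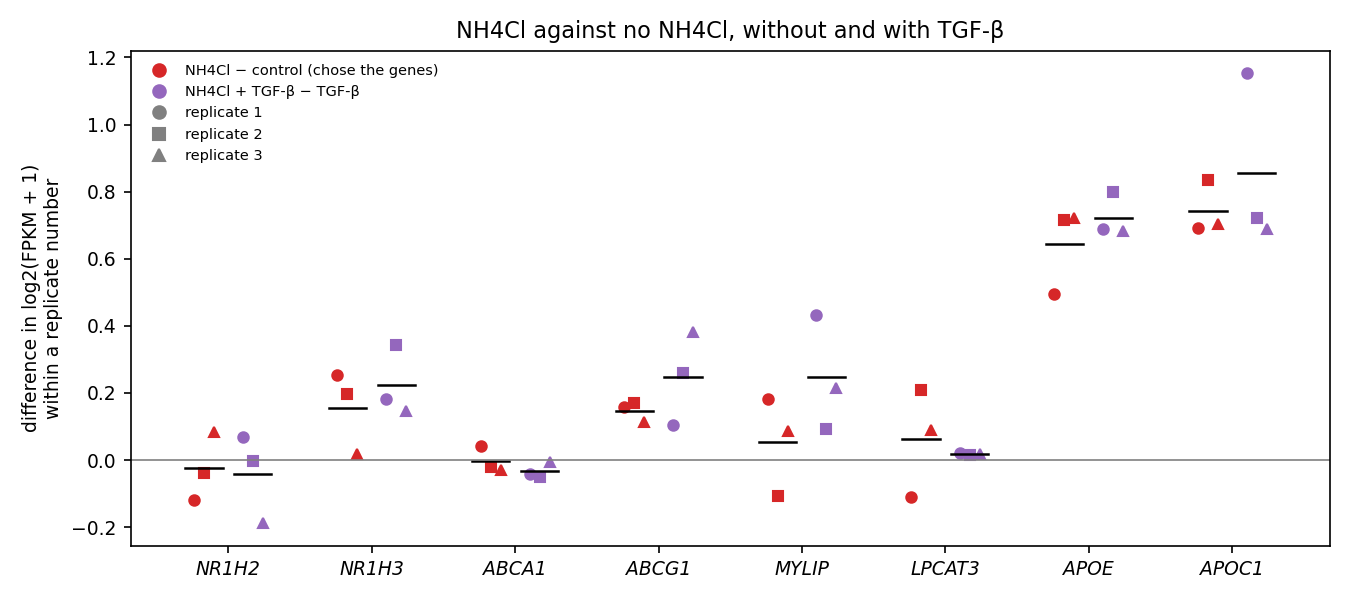
Differences in log2(FPKM + 1) between libraries with the same replicate number for the 8 genes, NH4Cl minus control in red and NH4Cl plus TGF-β minus TGF-β in purple, with the mean of each 3 as a bar. With TGF-β the 3 points lie between 0.689 and 1.153 for APOC1 and between 0.682 and 0.798 for APOE, and those of LPCAT3 between 0.014 and 0.021.

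In the 6 libraries with TGF-β the effect of NH4Cl was tested with limma (two-sided, moderated, adjusted over all 12341 genes, threshold 0.05). The genes were chosen with earlier results of these data known, and whether the libraries with TGF-β had a part in the choice is not stated. The model also takes its spread from the control and NH4Cl libraries, and in a fit of the 6 libraries alone 0 members and 0 genes passed (1214 genes at an unadjusted p under 0.05). The test is therefore not shown to be independent of the choice. APOC1 rose, with a mean of 14.0 against 7.28 FPKM, a ratio of 1.93 and a log2 difference of 0.855 (SE 0.094, 95% interval 0.647 to 1.063). The adjusted p was 0.00667, and APOC1 was higher in 3 of 3 replicate numbers, by 1.153, 0.723 and 0.689. With the replicate block the SE was 0.0903 and the adjusted p was 0.000481. Over 21 alternatives its log2 difference ranged from 0.706 to 0.961 and its adjusted p from 8.62e-07 to 0.217, past the threshold in 19. The call was lost without TGF-β replicate 2 (0.847, adjusted p = 0.0583) and when the model held the 6 libraries of the 2 groups alone (adjusted p = 0.217).

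APOE also rose with NH4Cl in cells given TGF-β, from a mean of 8.86 to 15.3 FPKM, a ratio of 1.72. Its log2 difference was 0.723 (SE 0.0848, 95% interval 0.535 to 0.911, adjusted p = 0.0102), higher in 3 of 3 replicate numbers, by 0.689, 0.798 and 0.682. With the block the SE was 0.0549 and the adjusted p was 8.65e-05. Over 21 alternatives its log2 difference ranged from 0.686 to 0.789 and its adjusted p from 3.36e-08 to 0.19, past the threshold in 16. The call was lost without TGF-β replicate 2 (0.715, adjusted p = 0.0845) and without replicate 1 (0.711, adjusted p = 0.0599) or replicate 2 (0.693, adjusted p = 0.0686) of the group with both agents. It was also lost with libraries scaled to equal sums of FPKM (TPM, adjusted p = 0.0572) and with the 2 groups alone (adjusted p = 0.19). Among the 12341 genes ordered by log2 difference, APOC1 was number 28 and APOE number 50.

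NR1H3 did not pass the threshold without the block, at 3.46 against 2.83 FPKM and a log2 difference of 0.223 (SE 0.072, adjusted p = 0.204), higher in 3 of 3 replicate numbers. It did with the block (SE 0.0624, adjusted p = 0.034), 1 of 4 alternatives out of 20 that put it past the threshold, with adjusted p-values from 0.0267 to 0.534. The blocked call was lost without replicate number 1 (0.244, adjusted p = 0.143), without number 2 (0.164, adjusted p = 0.299) and without number 3 (0.262, adjusted p = 0.0555).

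The remaining tested members did not pass in either model. ABCG1 had a log2 difference of 0.249 (SE 0.207, adjusted p = 0.693), higher in 3 of 3 replicate numbers. Its adjusted p was 0.0841 with the block and 0.0199 with reads, the block and limma voom, within a range of 0.0199 to 0.968 over 20 alternatives. Its mean of 1.07 FPKM over the 12 libraries was close to the minimum, which the control and TGF-β groups did not reach, and with no filter its adjusted p was 0.812 (0.153 with the block). The difference itself was 0.089 without replicate 3 of the group with both agents, 0.143 without TGF-β replicate 2, 0.447 with a pseudocount of 0.1 and 0.5 with voom. MYLIP had a log2 difference of 0.247 (SE 0.125, adjusted p = 0.445), also higher in 3 of 3, with 0.0852 with the block and a range of 0.0641 to 0.803, and its difference ranged from 0.155 to 0.393. LPCAT3 differed by 0.017 (95% interval -0.268 to 0.302, adjusted p = 0.978) and NR1H2 by -0.04 (95% interval -0.337 to 0.256, adjusted p = 0.945), higher in 3 of 3 and in 1 of 3 replicate numbers.

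In that comparison 2 of the 7 members tested were past the threshold, both higher, beside 127 of 12341 genes (1.03%), of which 96 were higher and 31 lower. With the block 3 of the 7 members passed, beside 2322 genes (18.8%), 1275 of them higher and 1047 lower. The median log2 difference was 0.25 over the 7 members and -0.0001 over all genes tested. The gene count without the block moved with single libraries. It was 9 without TGF-β replicate 1, 3 without TGF-β replicate 2, and 5, 6 and 39 without replicates 1, 2 and 3 of the group with both agents. With the block it was 546 without replicate number 1, 580 without number 2 and 1653 without number 3. The member count was 0 without TGF-β replicate 2, 1 without replicate 1 or 2 of the group with both agents, and 2 in the blocked model without any 1 of the 3 numbers. Without number 3, APOC1 was at 0.938 (adjusted p = 0.00608) and APOE at 0.744 (adjusted p = 0.00245) with the block. NH4Cl alone and NH4Cl with TGF-β share no library, but the difference between their effects was not tested, since it contains the values that chose the genes.

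TGF-β against control asks what 1 h of TGF-β does without NH4Cl. The control libraries are also in the comparison taken as the choice, so for the members this test is not independent of the choice, and their differences are given as a description. By limma 0 of the 7 members and 0 of 12341 genes (0.0%) passed the threshold, with 103 genes at an unadjusted p under 0.05. With the block 0 members and 1 gene (0.0081%) passed, and with reads and limma voom 0 members and 2 genes. The log2 differences of the members ran from -0.099 for APOC1 and MYLIP to 0.131 for APOE. With 1 library left out APOE was 0.046 to 0.194, the lowest without control replicate 3, APOC1 was -0.159 to -0.046, its ends without TGF-β replicate 3 and 1, and MYLIP was -0.191 to -0.052, its ends without TGF-β replicate 3 and 2. APOC1 was lower in 2 of 3 replicate numbers and MYLIP in 3 of 3 (-0.059, -0.234 and -0.004). APOE was higher in 3 of 3, by 0.064, 0.07 and 0.26. The median was -0.07 over the 7 members and 0.0015 over all genes tested.

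TGF-β in cells given NH4Cl shares the libraries with both agents with the test of NH4Cl, and TGF-β against control shares the TGF-β libraries with it, so these tests are not independent. The NH4Cl libraries are also in the comparison taken as the choice, so here too the differences of the members are a description. By limma 0 of 7 members and 0 of 12341 genes (0.0%) passed, with 165 genes at an unadjusted p under 0.05. With the block 0 members and 1 gene (0.0081%) passed, and with voom 0 members and 2 genes. APOE had the largest log2 difference of the members, 0.21, 15.3 against 13.1 FPKM and higher in 3 of 3 replicate numbers, in groups that did not overlap. It did not pass in either model, and no share over all genes stands beside this separation. APOC1 differed by 0.013, NR1H3 by 0.0 and LPCAT3 by -0.071, and the median was 0.03 over the 7 members and 0.0004 over all genes. With 1 library left out APOE was 0.164 to 0.268, APOC1 -0.084 to 0.087, NR1H3 -0.006 to 0.009 and LPCAT3 -0.16 to 0.028.

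The gene behind both counts of 1 was ID1, a TGF-β family target named here after its values were seen. Its log2 difference was 0.65 with TGF-β alone (SE 0.0657, adjusted p = 0.0248 with the block) and 0.62 in cells given NH4Cl (adjusted p = 0.0342), higher in 3 of 3 replicate numbers each time. Without the block it did not pass. The call with TGF-β alone was lost without replicate number 1, 2 or 3 (adjusted p = 0.619, 0.155 and 0.112), and so was that in NH4Cl-treated cells (0.42, 0.694 and 0.25). Over 21 alternatives the adjusted p ranged from 9.13e-06 to 1.0 and from 0.000173 to 1.0. The difference was 0.422 without TGF-β replicate 3 in the first, and in the second 0.384 without NH4Cl replicate 2, 0.938 without NH4Cl replicate 3 and 0.365 without replicate 3 of the group with both agents. With voom the other genes were SMN1 and GTF2IP1, which have near-identical copies in the genome.

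APOE and APOC1 lie 4853 bases apart on chromosome 19, on the same strand, and the genes around them were compared for NH4Cl in TGF-β-treated cells. On the side of APOE, BCAM had a log2 difference of -0.03, NECTIN2 -0.09 and TOMM40 -0.08, and on the side of APOC1, CLASRP had 0.0, ZNF296 0.04 and GEMIN7 0.19, none past the threshold in either model. With 1 library left out and no block, BCAM ranged from -0.242 to 0.185, NECTIN2 from -0.195 to 0.079 and TOMM40 from -0.248 to 0.099. CLASRP ranged from -0.098 to 0.166, ZNF296 from -0.008 to 0.083 and GEMIN7 from 0.128 to 0.251, so all but GEMIN7 changed sign. With the block and 1 replicate number left out, BCAM (-0.047 to -0.014), NECTIN2 (-0.13 to -0.021) and TOMM40 (-0.096 to -0.066) stayed below 0. CLASRP (-0.047 to 0.063) and ZNF296 (-0.014 to 0.075) changed sign there too. NECTIN2 and TOMM40 were higher in 0 of 3 replicate numbers and BCAM in 1 of 3. CLPTM1 (-0.12) and RELB (-0.15) did not pass without the block and did with it (adjusted p = 0.0424 and 0.0483), lower each time. CLPTM1 lost that call without replicate number 1 (0.135), 2 (0.301) or 3 (0.0985), and RELB without number 1 (0.31) or 2 (0.211). Their adjusted p-values over 21 alternatives ranged from 0.0372 to 0.991 and from 0.0293 to 0.895. The difference of CLPTM1 was -0.048 and -0.217 without TGF-β replicate 2 and 3 and -0.012 without replicate 3 of the group with both agents, and that of RELB was -0.093 without TGF-β replicate 1. Between APOC1 and CLPTM1, the pseudogene APOC1P1 had 11 reads in all 12 libraries, APOC4-APOC2 had 5 and APOC2 had 37, while APOC4 was not analysed here. APOE and APOC1 were thus the 2 of the 10 tested genes of this stretch past the threshold without the block, beside 1.03% of all genes. With the block, CLPTM1 and RELB were added, so 4 of 10 passed (40.0%), beside 18.8% of all genes. The 10 include APOE and APOC1, around which the stretch was chosen, so these shares are not a result about the neighbours. TOMM40, next to APOE, had 86.4 FPKM against 11.3 for APOE.

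**Figure D3:**
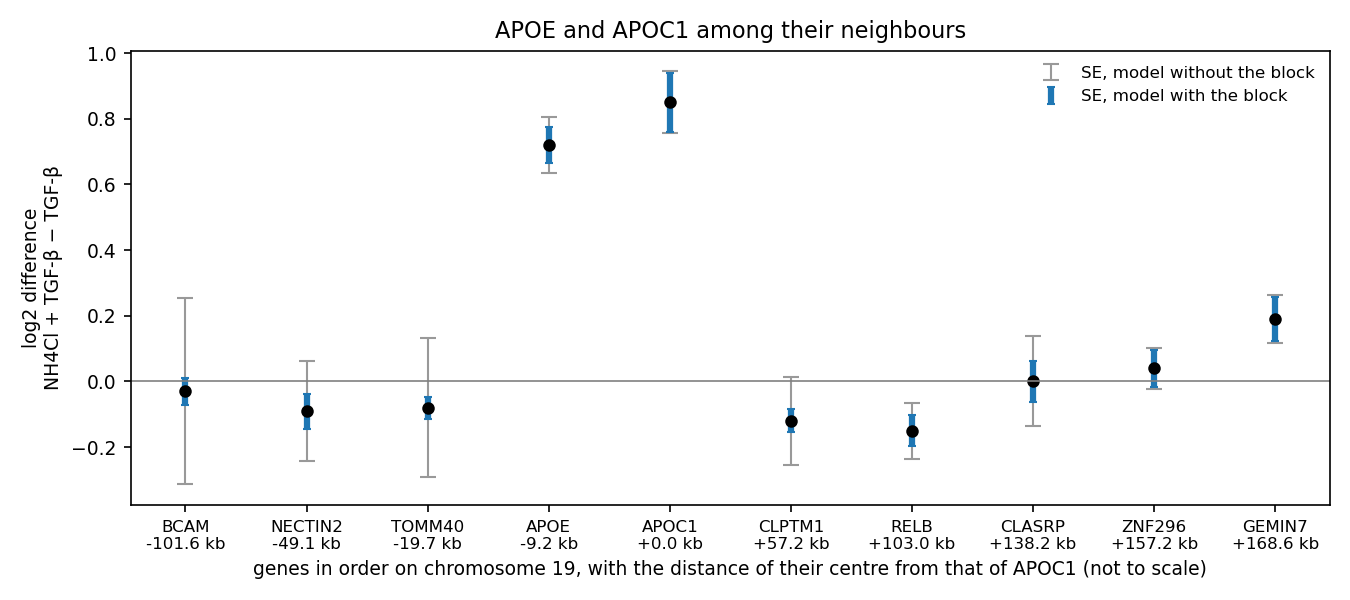
Log2 difference between NH4Cl plus TGF-β and TGF-β alone for the 10 tested genes around APOC1, in their order on chromosome 19, with the SE of the model without the block in grey and with it in blue. APOE at 0.72 and APOC1 at 0.85 stand above the other 8 genes, which lie between -0.15 and 0.19.

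Some members share exons with other genes, and whether reads were counted by strand is not stated. How reads on bases shared on the same strand were assigned is not known here either. Values of overlapping and antisense genes are therefore uncertain. APOC1 shares 532 of its 1231 exon bases (43.2%) with the unclassified transcript AC011481.3 on the same strand, whose mean was 0.00963 FPKM. LPCAT3 shares 3100 of 4725 exon bases (65.6%) with EMG1 on the opposite strand, at 9.48 FPKM, and NR1H3 shares 189 of 4533 (4.17%) with ACP2, at 10.1 FPKM. APOE shares 19 bases (0.867%) with AC011481.3, and NR1H2, ABCA1, ABCG1 and MYLIP share 0 exon bases with another gene.

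Other genes of the pathway came from fixed lists, and the counts given are for NH4Cl in TGF-β-treated cells. In TGF-β alone and in TGF-β with NH4Cl, 0 genes of these lists passed in either model. Over all 12341 genes, 1642 (13.3%) were at an unadjusted p under 0.05 without the block, 2322 (18.8%) passed with it and 2980 (24.1%) with voom. No list was tested as a set against these shares. Of 16 other LXR targets, 9 were tested, and the median log2 difference was 0.22. By limma 0 passed without the block (4 at an unadjusted p under 0.05), 5 with it (55.6%, against 18.8% of all genes) and 6 with voom, all higher. The 5 were SCD (0.41), SREBF1 (0.34), FASN (0.3), MLXIPL (0.3) and PLTP (0.21), which serve fatty acid synthesis and its control or, for PLTP, phospholipid transfer. SCD had the highest level of the list, 361 FPKM. FASN lost the call without replicate number 2 (adjusted p = 0.113), MLXIPL without number 1 (0.109) or 2 (0.0685) and PLTP without number 1 (0.352) or 2 (0.229). Over 21 alternatives the adjusted p-values of the 5 ranged from 3.74e-09 for SCD to 0.957 for PLTP. With 1 library left out, the difference of SCD was 0.249 without replicate 3 of the group with both agents, that of MLXIPL 0.459 without TGF-β replicate 3, and that of PLTP 0.035 without TGF-β replicate 3 and 0.067, 0.088 and 0.471 without replicates 1, 2 and 3 of the group with both agents.

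Of 13 partners and cofactors of the receptors, 12 were tested, with a median of -0.11. By limma 0 passed without the block (1 at an unadjusted p under 0.05) and 4 with voom, and with the block RXRA (0.2), the gene of an obligate partner, was higher and NCOA1 (-0.19), a coactivator gene, was lower. These 2 of 12 (16.7%) were no larger a share than the 18.8% of all genes. RXRA lost that call without replicate number 1 (adjusted p = 0.0661) or 2 (0.144), and NCOA1 without number 1 (0.179), 2 (0.286) or 3 (0.0534), within 0.000667 to 0.801 and 0.00797 to 0.939 over 21 alternatives. RXRA was at 0.123 and NCOA1 at -0.111 without replicate 3 of the group with both agents, and NCOA1 at -0.118 and -0.317 without TGF-β replicate 2 and 3. HDAC3, of the corepressor complex, had the highest level, 21.7 FPKM, and a log2 difference of 0.08. Of 10 genes for the making or removal of sterol ligands, 5 were tested, and 0 passed by limma without the block (4 at an unadjusted p under 0.05). With the block 4 passed (80.0%, against 18.8% of all genes), all higher, as with voom: EBP (0.42), SQLE (0.35), LSS (0.34) and HSD3B7 (0.28), with a median of 0.34. The other tested gene, SULT2B1 (-0.05), did not pass in either model. Under the FPKM minimum, and named after their values were seen, were CYP27A1 (0.766 FPKM), CH25H (0.568), CYP11A1 (0.0552) and CYP46A1 (0.00864). The 80.0% therefore does not cover these untested genes. EBP, at an adjusted p of 0.0507 without the block, was past the threshold in that model without TGF-β replicate 3 (0.0446), with a minimum mean of 5 FPKM (0.0417), with TPM (0.0198) and with median centring (0.0492), as was SQLE with TPM (0.0398). HSD3B7 lost the blocked call without number 1 (0.201), 2 (0.0685) or 3 (0.0739). Over 21 alternatives the adjusted p-values ranged from 1e-07 to 0.291 for EBP and from 9.36e-07 to 0.386 for SQLE. Those of LSS ranged from 5.04e-07 to 0.439 and those of HSD3B7 from 0.0111 to 0.544. EBP also had the highest level of that list, 107 FPKM.

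SREBP2 targets, which respond to low sterol and share EBP, SQLE and LSS with the list of ligand enzymes, had a median of 0.3 over 23 tested genes. Without the block 3 of 23 passed (beside 1.03% of all genes), and with it 19 (82.6%, beside 18.8%), as with voom (beside 24.1%), all higher. INSIG1 (0.83), MSMO1 (0.6) and HMGCS1 (0.5) had the largest differences among the 19, and DHCR7 the highest level, 147 FPKM. Without replicate 3 of the group with both agents INSIG1 was at 0.527 and MSMO1 at 0.345, and over 21 alternatives the adjusted p-values of the 3 ranged from 2.88e-12 to 0.658, 4.25e-07 to 0.608 and 2.45e-09 to 0.349. HMGCS1 was also past the threshold without the block with TPM (adjusted p = 0.024). Without the block the 3 were DHCR7 (0.3, adjusted p = 0.0354) and, named after their values were seen, ACAT2 (0.41, adjusted p = 0.0142) and MVK (0.32, adjusted p = 0.0351), each higher in 3 of 3 replicate numbers. DHCR7 lost that call without any 1 of the 6 libraries (adjusted p 0.0527 to 0.162), MVK without any except TGF-β replicate 3 (0.0825 to 0.154), and ACAT2 without replicate 1 or 2 of either group (0.0645 to 0.0869). Over 21 alternatives their adjusted p-values reached 0.278, 0.278 and 0.248 at the highest and were past the threshold in 12, 14 and 15. Of 22 other apolipoprotein genes, 6 were tested, with a median of 0.05. By limma 0 passed without the block (0 also at an unadjusted p under 0.05) and 1 with voom, and with the block CLU (-0.24), which encodes clusterin, was lower and lost the call without replicate number 1 (adjusted p = 0.059), 2 (0.0887) or 3 (0.0522), within 0.000757 to 0.906 over 21 alternatives. It was at -0.148 without TGF-β replicate 2 and at -0.125 without replicate 3 of the group with both agents. This 1 of 6 (16.7%) was no larger a share than that of all genes. APOO was the highest at 13.6 FPKM, and APOC2, next to APOC1, was at 0.147.

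**Figure D4:**
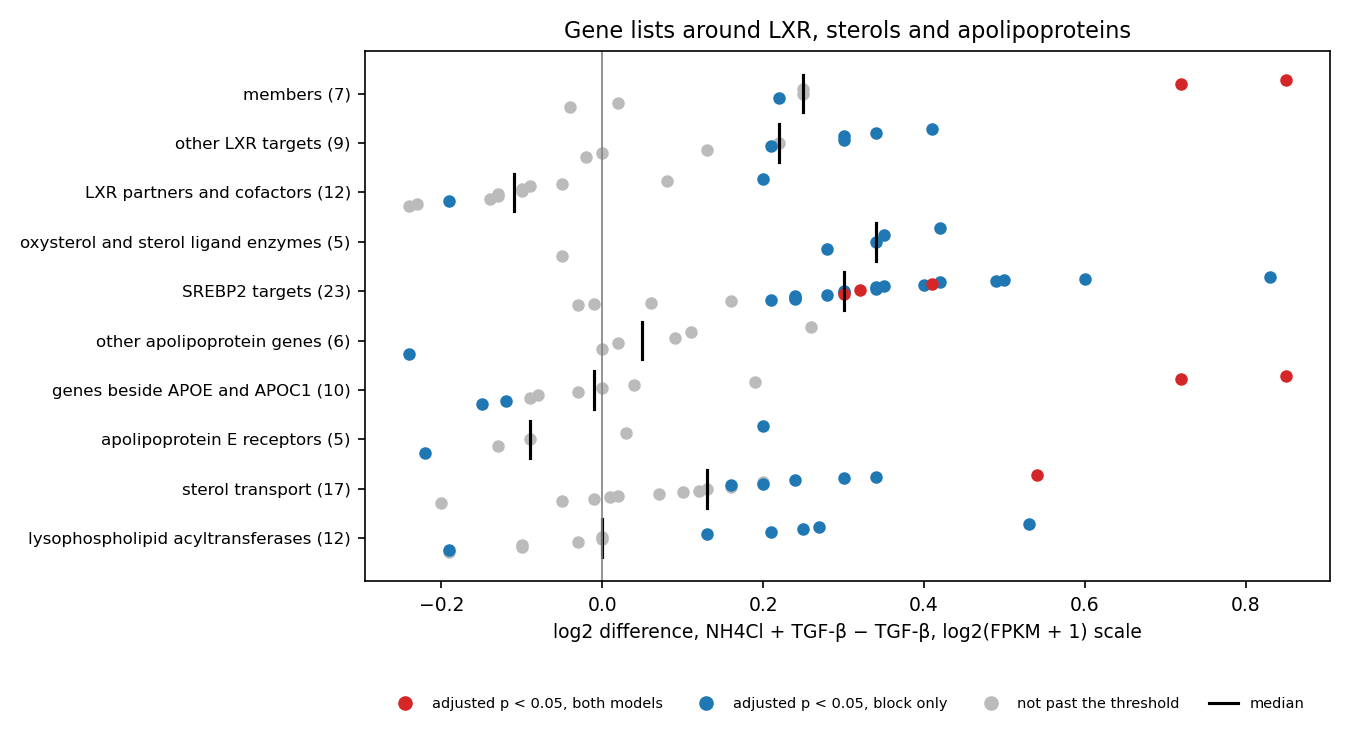
Log2 difference between NH4Cl plus TGF-β and TGF-β alone for each tested gene of 10 lists, with the number tested in brackets and the list's median as a bar. Red points passed the threshold in both models and blue points with the block alone, and the medians run from -0.11 for receptor partners to 0.34 for sterol ligand enzymes.

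Likeness to APOC1 was measured as Pearson's r over the 12 libraries on log2(FPKM + 1) with the mean of each replicate number subtracted, among 12340 genes, and is a description with no p. APOE had r = 0.93 and was number 303, NR1H3 had 0.857 and was number 920, and ABCG1 (0.738), MYLIP (0.729), LPCAT3 (0.329) and NR1H2 (-0.183) followed. The genes most like APOC1 were PRDX5 (0.99), DEPDC7 (0.984), HTATIP2 (0.984), SELPLG (0.983) and WBP2 (0.983), and the most opposite were HUNK (-0.991), ERAP1 (-0.989) and CCND1 (-0.982). The points share the same 12 libraries and the treatments that set them apart. Of the 5 highest, 1 was among the 5 highest with no mean subtracted and 2 with Spearman's correlation. With no mean subtracted PRDX5 was still number 1, while DEPDC7 was number 39, HTATIP2 213, SELPLG 186 and WBP2 1354 (r = 0.593), and HUNK (r = -0.907), ERAP1 (-0.844) and CCND1 (-0.497) were numbers 12303, 12190 and 10543. The places of all these genes except PRDX5 thus depend on the subtraction. With Spearman's correlation PRDX5 was number 21, DEPDC7 2, HTATIP2 155, SELPLG 28 and WBP2 3, so the place of PRDX5 depends on the measure. HUNK, ERAP1 and CCND1 were then numbers 12338, 12332 and 11600.

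Marker genes were used to check what cells the RNA came from. Of 9 epithelial markers 8 had a mean of at least 1 FPKM, led by KRT18 at 876, and CEACAM5 was under 0.1. Their sum was 2290 to 3430 FPKM per library. By limma 0 passed without the block (1 at an unadjusted p under 0.05), and with it EPCAM (0.19) was higher with NH4Cl in TGF-β-treated cells, and CDH1 (-0.19) and KRT19 (-0.29) were lower, 3 of 8 (37.5%) against 18.8% of all genes. EPCAM lost that call without replicate number 1 (adjusted p = 0.0579) or 2 (0.112), and CDH1 without number 1 (0.196) or 3 (0.138), within 0.000518 to 0.469 and 0.00448 to 0.857 over 21 alternatives. Without TGF-β replicate 3 CDH1 was at -0.054 and KRT19 at -0.119, and without replicate 3 of the group with both agents CDH1 was at -0.291. Of 13 macrophage markers 4 were analysed, summing to 1.04 to 2.88 FPKM, led by LYZ at 1.12, with MRC1 under 0.1. Hepatocyte markers, 8 of 10 analysed, summed to 25.5 to 44.1 FPKM, of which SERPINA1 made up 35.6 on average, with APOA1, FGB, TF and AHSG under 0.1; APOA1, APOB and APOH are also in the apolipoprotein list. Fibroblast markers, 9 of 9 analysed, summed to 8.04 to 11.3 FPKM, of which LUM made up 7.79, with COL1A2, COL3A1, DCN, PDGFRA, FAP and THY1 under 0.1.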

How the data were processed

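The deposited values are FPKM from the authors for 25733 genes in 12 libraries. The submitters' processing notes name Trimmomatic 0.36, STAR 2.5.2b, Subread 1.5.2, featureCounts and DESeq2 on GRCh38 (hg38), whereas the study's methods name HTSeq2 and DESeq2. For the RNA the methods name the PureLink kit and the labels the RNeasy Plus Mini kit. The FPKM became log2(FPKM + 1), and the 12341 genes whose mean reached 1 FPKM were kept. The model in limma 3.58.1 (R 4.3.3) had 1 mean for each of the 4 groups, with moderation along an intensity trend and two-sided tests, and p-values were adjusted by Benjamini-Hochberg over the genes tested. The code was first tested on simulated data. Tables and plots used Python 3.11.15, pandas 2.3.3, numpy 2.4.6, scipy 1.17.1 and matplotlib 3.10.9. Genes were matched by Ensembl identifier to GENCODE release 29, which matched all 25733, and promoters came from RefSeq.

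Deviations from the group means were correlated across genes for pairs of libraries that share a replicate number. In the 6 pairs of each number r was 0.3491 to 0.4305 (number 1), 0.4456 to 0.5326 (number 2) and 0.7023 to 0.7737 (number 3). The pairing rests on these correlations, since neither the labels nor the methods state what a replicate number means.

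The members and the lists were chosen with earlier results of these data known. The lists were the members, other LXR targets, LXR partners and cofactors, oxysterol and sterol ligand enzymes, SREBP2 targets, other apolipoprotein genes, genes beside APOE and APOC1, apolipoprotein E receptors, sterol transport, lysophospholipid acyltransferases, and epithelial, macrophage, hepatocyte and fibroblast markers. Named were all 8 members and, from each list, every gene past the threshold with or without the block when at most 5 passed, otherwise the 3 with the largest change, and the gene with the highest mean FPKM. All genes beside APOE and APOC1 were named, and for likeness to APOC1 the 5 highest and 3 lowest correlations. Of the genes listed, 2 are not reported here and were left out of the counts and medians of their lists. The medians of the lists kept their sign under TPM and with libraries centred on their median.

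Alternatives were a pseudocount of 0.1, no filter, a minimum mean of 5 FPKM, libraries scaled to equal sums (TPM), median centring, no intensity trend, the 2 groups compared alone, the replicate block alone and with TPM, the pseudocount, no filter or recovered reads and limma voom, and each library or replicate number left out. Some listed genes were not analysed here: CETP, CYP7A1, RXRG, CYP7B1, APOA4, APOA5, APOB, APOC3, APOC4, APOL5, TTR, and PTPRC, CD68, CD163, MARCO, C1QA, C1QB, C1QC, TYROBP and AIF1 among macrophage markers.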

Additional observations from a re-analysis of the deposited data

How the results depend on the processing

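For NH4Cl in TGF-β-treated cells, 127 genes passed without the block. The count was 51 with no filter, 68 with TPM, 0 with the 2 groups compared alone, 2322 with the replicate block, 2060 with the block and TPM, 2291 with the block and a pseudocount of 0.1, 1574 with the block and no filter and 2980 with the block, reads and voom. It was 3 to 133 without a library and 546, 580 and 1653 in the blocked model without replicate number 1, 2 and 3. The member count of 2 was 1 with TPM, 0 with the 2 groups alone, 4 with the block and voom, and 0 to 2 without a library. APOC1 kept its direction throughout and lost its call with the 2 groups alone (0.855, adjusted p = 0.217), a fit with fewer samples, and without TGF-β replicate 2 (0.847, adjusted p = 0.0583), within 0.758 to 0.929 without a library.

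For TGF-β alone, the 0 genes of limma (103 at an unadjusted p under 0.05) became 1 with the block, alone or with TPM or a pseudocount of 0.1, 2 with voom, 0 to 1 without a library and 0 to 1 in the blocked model without a number. For TGF-β in NH4Cl-treated cells, 0 (165 unadjusted) became 1 with the block, alone or with a pseudocount of 0.1, and 2 with voom. The causes of these changes were not tested.

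Of 1437 refitted values for 69 pairs of a named gene and a comparison, 191 gained a call, 185 of them with the block, and 36 lost one. The 64 values that changed sign were uncalled, in 20 pairs of at most 0.18 in size with all libraries. Among members the block changed the call of NR1H3 alone. The values of the members with NH4Cl alone were recomputed under 8 alternatives each, and those of 5 members changed sign without 1 library. ABCG1 went from 0.147 to -0.021 without NH4Cl replicate 3 and to 0.331 without control replicate 3. NR1H2 went from -0.025 to between -0.155 and 0.053, LPCAT3 from 0.063 to between -0.036 and 0.132, MYLIP from 0.054 to between -0.012 and 0.114 and ABCA1 from -0.003 to between -0.015 and 0.011. The depth limits ABCA1, with 1 to 11 reads per library, most among the members.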

Other observations

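The receptors of apolipoprotein E were compared for NH4Cl in TGF-β-treated cells. Of 7 receptor genes 5 were tested, with a median log2 difference of -0.09. By limma 0 passed without the block, with 1 of 5 at an unadjusted p under 0.05 (beside 13.3% of all genes). With voom 3 of 5 passed, 1 higher and 2 lower (beside 24.1%). With the block LRP8 (0.2) was higher and SORL1 (-0.22) was lower, each in 3 of 3 replicate numbers. These were 2 of 5 (40.0%) beside 2322 of all 12341 genes (18.8%). LRP5 was the highest at 54.6 FPKM, with a log2 difference of -0.13 and no call in either model. LRP8 lost the call without replicate number 1 (adjusted p = 0.0819), 2 (0.331) or 3 (0.11), and SORL1 without number 1 (0.197) or 2 (0.13). Over 21 alternatives the adjusted p-values of LRP8, SORL1 and LRP5 ranged from 0.00526 to 0.928, 0.00126 to 0.661 and 0.0451 to 0.901. The difference of LRP8 was 0.117 and 0.304 without TGF-β replicate 2 and 3 and 0.295 and 0.094 without replicate 1 and 3 of the group with both agents, and that of SORL1 was -0.127 without replicate 1 of that group.

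Of 20 genes of sterol transport 17 were tested, with a median of 0.13, and 1 passed without the block (beside 1.03% of all genes) and 6 with it (35.3%, beside 18.8%), all higher, while with voom 9 were higher and 1 lower (beside 24.1%). NPC2, whose protein carries cholesterol out of lysosomes, passed without the block (0.54, from 14.0 to 20.8 FPKM, adjusted p = 0.0414, higher in 3 of 3 replicate numbers), ranging from 4.09e-07 to 0.256 over 21 alternatives. It lost that call without TGF-β replicate 1 (0.175) or 2 (0.155) and without replicate 1 (0.126), 2 (0.0848) or 3 (0.0947) of the group with both agents. With the block GRAMD1B (0.34) and STARD4 (0.3) followed in size, and GRAMD1B lost its call without replicate number 1 (0.138) or 2 (0.185), within 8.04e-05 to 0.431 over 20 alternatives. STARD4 was at 0.192 and 0.491 without TGF-β replicate 2 and 3 and at 0.056 without replicate 3 of the group with both agents, with adjusted p-values from 1.89e-05 to 0.975 over 21 alternatives. OSBP was the highest at 34.0 FPKM. Of 13 lysophospholipid acyltransferases beside LPCAT3, 12 were tested, with a median of 0.0 and 5 of 12 above 0. Of these 12, 0 were past the threshold by limma without the block (4 at an unadjusted p under 0.05, beside 13.3% of all genes). With the block 5 were higher and 1 lower (6 of 12, against 18.8% of all genes), and so with voom (6 of 12, against 24.1%). LPCAT4 (0.53), LPCAT2 (0.27) and MBOAT2 (0.25) had the largest differences among the 6, and AGPAT2 (0.21) the highest level, 107 FPKM. LPCAT2 lost the call without number 1 (0.116) or 2 (0.171), MBOAT2 without 1 (0.0642) or 2 (0.112) and AGPAT2 without 1 (0.103) or 3 (0.0849). Over the alternatives their adjusted p-values ranged from 0.00195 to 0.699, 0.000525 to 0.971 and 0.000857 to 0.995, and those of LPCAT4 from 7.43e-07 to 0.636. Without TGF-β replicate 2 the difference of MBOAT2 was 0.124 and that of AGPAT2 0.117, without TGF-β replicate 3 they were 0.413 and 0.365, and without replicate 3 of the group with both agents 0.114 and 0.007. AGPAT2 was at 0.344 without replicate 2 of that group.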
